A study of Mus musculus with 29 samples.

Results

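Of 21 single OT-1 cells collected after contact with antigen, 6 gave libraries in which added spike-in RNA held at most 50% of the signal, and these 6 RNA-rich libraries are described here beside the other 15, in which spike-ins dominated. The 6 were chosen by a measured value, the sum of TPM over the 92 ERCC entries, with an upper limit of 500000 of the 1000000 TPM in each library. TPM is transcript abundance per length, scaled to a fixed total. ERCC transcripts are synthetic RNAs added to a lysate as a reference. All measures of RNA content come from the libraries that were sorted by this sum, so the values are given as descriptions and without a test.

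The series holds 29 splenocytes labelled as T cells from the spleen of OT-1 mice, each amplified on its own with SMART-seq2, which copies whole transcripts into cDNA. The 21 OVA cells had been together with antigen-presenting cells showing ovalbumin for 3 h, and the 8 nothing cells with antigen-presenting cells showing nothing for 3 h. Both groups share the OT-1 strain, whose mice carry a transgenic T cell receptor, and both came from spleen treated to lyse red blood cells. No sort for T cells, no identity of the antigen-presenting cells and no mouse, culture or day is given in the sources used here, so each group counts as 1 sample and OVA cell 1 to 21 are only names.

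The OT-1 receptor recognises an ovalbumin peptide on a class I MHC molecule and normally works with the CD8 coreceptor. Receptor engagement is known to act through kinases and adaptors such as Zap70 and Lat, to induce immediate early transcription factors within the first hours, and then surface molecules such as Cd69 and cytokines. A quiescent T cell is small and holds little RNA, which makes its library sensitive to the ratio of cellular to added RNA. Spleen also holds neutrophils, whose most abundant transcripts include S100a8 and S100a9, and red cell precursors rich in haemoglobin transcripts.

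The spike-in share was 5.58% in OVA cell 8, 9.88% in cell 16, 12.6% in cell 9, 28.5% in cell 19, 29.4% in cell 13 and 35.1% in cell 5. Cell 5 was therefore the member just inside the limit, and cell 7, with 65.9%, was the library just outside it. The other spike-in-dominated libraries reached 97.7%. No OVA library lay between 35.1% and 65.9%. Membership depended on mitochondrial signal in 2 of the 6 libraries. With mitochondrial genes and their nuclear copies left out of the total, a scale chosen after the values were seen, the spike-in share was 8.60% in cell 8, 32.8% in cell 16, 40.6% in cell 13 and 46.2% in cell 9. On that scale it was 79.3% in cell 19 and 81.0% in cell 5, above the limit, and the number of RNA-rich libraries fell from 6 to 4.

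**Figure D1:**
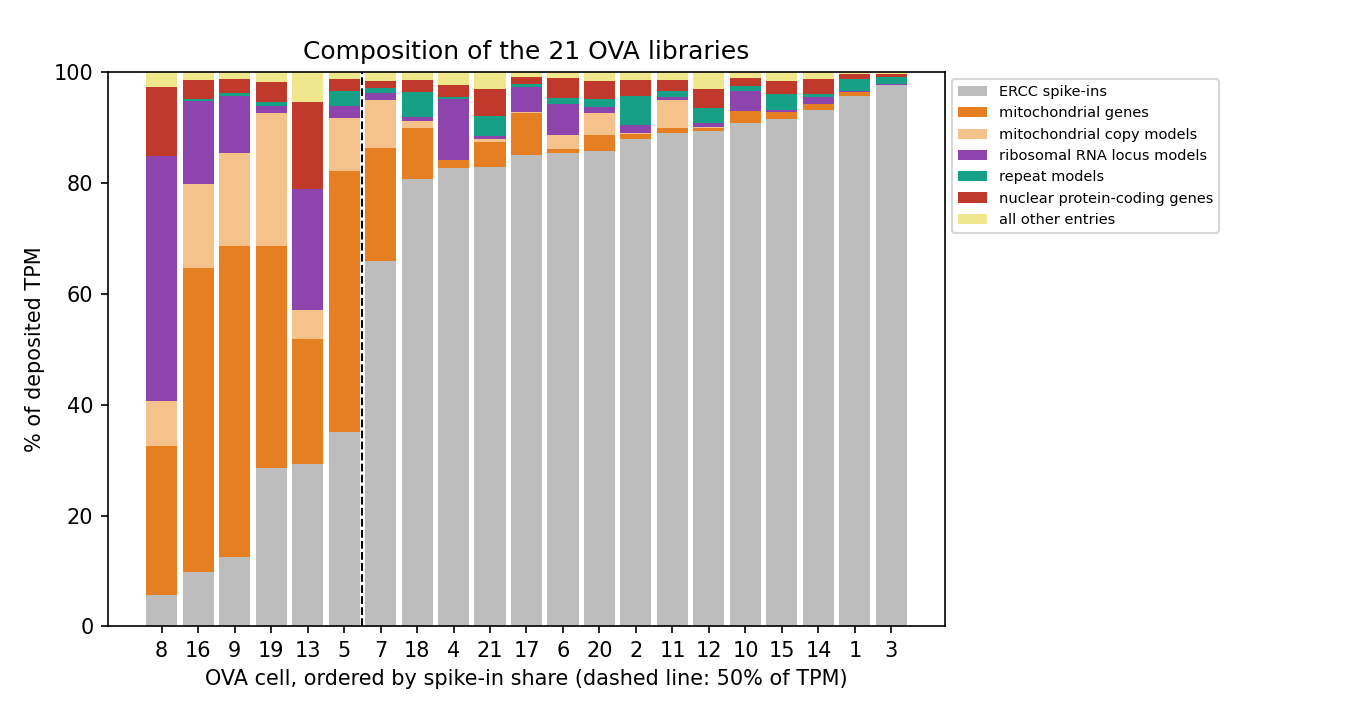
Stacked bars give the percentage of deposited TPM held by spike-ins and by 6 classes of entries in each of the 21 OVA libraries, ordered by spike-in share, with a dashed line between the 6 RNA-rich and 15 spike-in-dominated libraries. Grey spike-in bars end at or below 35.1% on the left and start at 65.9% on the right, and orange mitochondrial signal fills most of the space in 4 of the 6 RNA-rich libraries.

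Most of the cellular signal of the RNA-rich libraries was mitochondrial or lay in gene models at the ribosomal RNA locus. After each library was rescaled to 1000000 without its spike-ins, here called rescaled TPM, mitochondrial genes held 72.6% in cell 5, 64.1% in cell 9, 60.8% in cell 16, 56.2% in cell 19, 31.7% in cell 13 and 28.6% in cell 8. The spike-in-dominated libraries ranged from 0.166% to 60.1% with a median of 14.9%, so the sets overlapped. The ribosomal RNA locus models of chromosome 17 held 46.7% in cell 8, 30.9% in cell 13, 16.7% in cell 16 and 11.9% in cell 9, against 3.16% in cell 5 and 1.80% in cell 19. Among these models CT010467.1 alone held 43.8%, 29.0%, 15.6% and 11.4% in cells 8, 13, 16 and 9. It held 0.0083% in cell 5 and 0.0130% in cell 19, the same 2 libraries that passed the limit only with mitochondrial signal. In the spike-in-dominated set it held 38.9% in cell 6 and a median of 0.0880%. Another model of the locus, AY036118, had the opposite pattern. It was listed at 0 in cells 8, 9, 13 and 16, and was at 31487 rescaled TPM in cell 5, 1780 in cell 19 and 1297 to 389727 in 14 of the 15. The models overlap (chromosome 17, 39846353 to 39848827 and 39847113 to 39848035), so the division of reads between them is uncertain.

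Within the mitochondrial signal a very short gene stood out. mt-Nd4l, a subunit of respiratory complex I (mitochondrial genome, 9877 to 10173, 297 bases, GENCODE M21 on GRCm38), held 50.1% of rescaled TPM in cell 5, 48.6% in cell 9, 40.0% in cell 16, 37.9% in cell 19, 17.8% in cell 13 and 16.8% in cell 8. It was detected in 3 of the 15 spike-in-dominated libraries, cells 7, 20 and 21, where it held at most 30.4%. mt-Atp8, a subunit of ATP synthase (7766 to 7969, 204 bases), held 5.36% to 17.0% in the 6 libraries. Both genes overlap a longer neighbour, and those neighbours, mt-Nd4 and mt-Atp6, were listed at 0 in all 6. In the spike-in-dominated set mt-Nd4 was above 0 in 6 libraries and mt-Atp6 in 2, and in no OVA library were both genes of a pair above 0. How reads in the overlaps were assigned is not given in the sources used here, and the part of this assignment in the mitochondrial shares was not tested. The mitochondrial 16S ribosomal RNA mt-Rnr2, which has no such overlap, lay at 23006 to 57989 rescaled TPM in the RNA-rich set and at 389 to 119374 in the spike-in-dominated set, a range that contains it.

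Relative to the spike-ins, mitochondrial and nuclear protein-coding transcripts were more abundant in every RNA-rich library than in any spike-in-dominated library, while transcripts at repeat loci overlapped between the sets. The TPM of nuclear protein-coding genes per TPM of spike-in was 2.22 in cell 8, 0.537 in cell 13, 0.338 in cell 16, 0.196 in cell 9, 0.127 in cell 19 and 0.0634 in cell 5. The spike-in-dominated libraries lay between 0.00536 and 0.0596 with a median of 0.0264, so the sets did not overlap, although cell 5 was close to the upper end. The same ratio for mitochondrial genes was 0.763 to 5.55 in the RNA-rich and at most 0.311 in the spike-in-dominated libraries. For repeat models on chromosomes 2, 9 and 14, such as Gm10800, the ratio was 0.00233 to 0.0775 (median 0.0288) against 0.00418 to 0.0603 (median 0.0131). On this scale the RNA-rich median was higher and the ranges overlapped. As a share of rescaled TPM the order of the medians was reversed. Repeat models held 0.0724% to 4.19% (median 0.441%) in the RNA-rich and 2.0% to 54.8% (median 9.38%) in the spike-in-dominated libraries. Only cell 5, at 4.19%, lay within the latter range. The ratios to spike-in TPM contain the quantity that sorted the libraries, and they stand for RNA content only if every tube received the same amount of spike-in, which is not given in the sources used here.

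**Figure D2:**
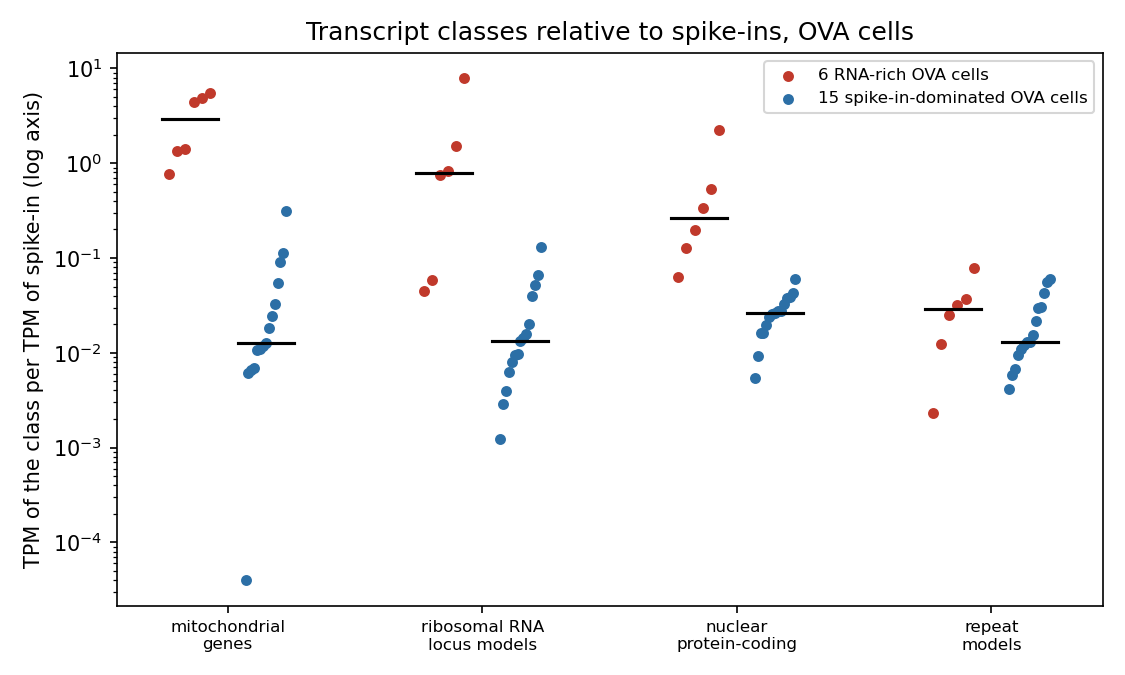
Each point is an OVA library, the y axis (log scale) is the TPM of a transcript class divided by the TPM of spike-ins, and the short black lines are medians. The red RNA-rich libraries lie above all blue spike-in-dominated libraries for mitochondrial and nuclear protein-coding genes, 2 of 6 lie among them for ribosomal RNA locus models, and the sets overlap for repeat models.

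Nuclear protein-coding genes made up a small part of each RNA-rich library. They held 22.3% of rescaled TPM in cell 13 and 13.1% in cell 8, and 5.08%, 3.70%, 3.43% and 2.81% in cells 19, 16, 5 and 9. The spike-in-dominated libraries had 3.78% to 37.4%. A nuclear gene of an RNA-rich library was thus divided by a total that mitochondrial and ribosomal RNA entries mostly filled. This lowers rescaled TPM values in cells 5, 9, 16 and 19 against cells 8 and 13.

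Genes at a rescaled TPM of at least 1 were called detected. This held for 4200 genes in cell 8, 2369 in cell 16, 2322 in cell 13, 1900 in cell 9, 1687 in cell 19 and 1390 in cell 5, against 250 to 1707 (median 869) in the spike-in-dominated set. Cells 19 and 5 therefore lay within the range of the other set, and the other 4 lay above it. With a detection limit of 10 the medians differed by 162 genes in place of 1242, so the size of the gap rests on genes of low level. TPM keeps no read number, so sequencing depth is unknown and a gene listed at 0 may be a failed estimate.

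The genes of the RNA-rich libraries were shared more between libraries, but these libraries also detected more genes. Of 22001 nuclear protein-coding genes they detected 707 to 3099 (median 1158), against 137 to 993 (median 451) in the spike-in-dominated set. A larger number of genes alone raises sharing, and the values below are not adjusted for it. Any 2 RNA-rich libraries shared 135 to 699 nuclear protein-coding genes over 15 pairs, a median of 21.6% of the genes of either library, while 105 pairs of spike-in-dominated libraries shared 4 to 105, a median of 7.39%. Cells 8 and 13 shared the most, 699 genes, which were 22.6% of those in cell 8 and 56.3% of those in cell 13. Sharing was nevertheless limited, since 3713 of the 5529 genes found in any RNA-rich library were found in exactly 1 of them. Only 56 were found in all 6, and of these 32 encode ribosomal proteins. Olfactory and vomeronasal receptor genes belong to sensory neurons and have no known place in a T cell. The share of them that was detected, divided by the share of other nuclear genes, was 0.0363 in cell 8 and 0.114 in cell 13. It was 0.230 in cell 19, 0.371 in cell 16, 0.375 in cell 9 and 0.643 in cell 5, against 0.453 to 1.26 in the spike-in-dominated set, so cell 5 alone lay in that range.

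Cytosolic ribosomal protein genes, which encode the protein part of the ribosome, were the group that separated the sets most completely by detection. Of 86 genes, 80 were detected in cells 8 and 13, 71 in cell 19, 70 in cell 9, 68 in cell 16 and 47 in cell 5, while no spike-in-dominated library had more than 28. Whether their summed level separated the sets depended on the scale. In rescaled TPM it was 4956 to 86848 against 0 to 55224, and the ranges overlapped. Per TPM of spike-in it was 0.0132 to 0.295 against 0 to 0.00633, with no overlap. That ratio contains the quantity that sorted the libraries, so a gap on it is in part built in. As a share of nuclear protein-coding signal they held 38.9% in cell 13, 37.2% in cell 19, 31.8% in cell 9, 20.8% in cell 5, 13.4% in cell 16 and 13.3% in cell 8. The RNA-rich median was 26.3% and the spike-in-dominated median 6.94%, with a spike-in-dominated range of 0% to 16.2% that reached above cells 8 and 16.

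**Figure D3:**
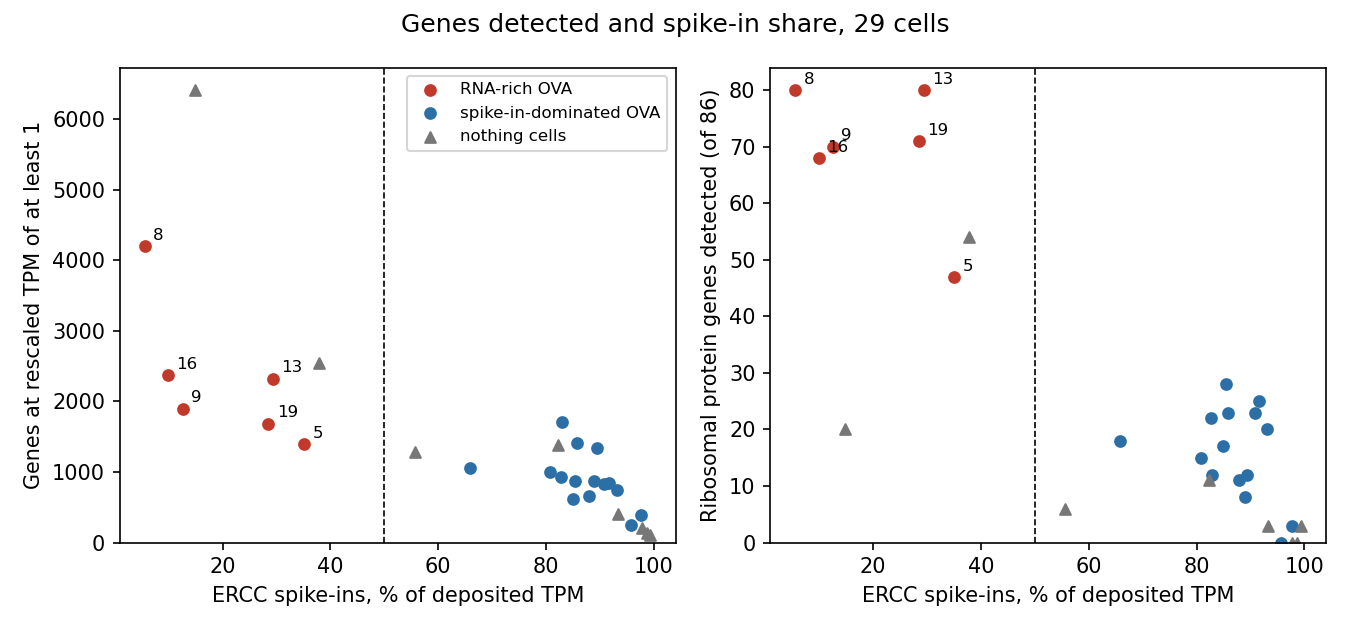
The left plot gives genes detected (rescaled TPM of at least 1) and the right plot ribosomal protein genes detected of 86, each against the spike-in share of deposited TPM for all 29 cells. The numbered red RNA-rich libraries have 47 to 80 ribosomal protein genes, the blue spike-in-dominated libraries at most 28, and the dashed line marks 50%.

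Rpl36, a protein of the large subunit, was at 166, 389, 399, 890, 210 and 328 rescaled TPM in cells 5, 8, 9, 13, 16 and 19 (the order also used below). In the spike-in-dominated set it was above 0 in cell 6 alone, at 4154, and the difference of mean log2(rescaled TPM + 1) was 7.62. Rpl34 was at 159, 211, 34.3, 707, 107 and 408, and Rps7, of the small subunit, at 128, 142, 54.3, 1577, 35.4 and 113. Both were listed at 0 in all 15 spike-in-dominated libraries. Ybx1, an RNA-binding cold shock domain protein, was the third gene found in all 6 and in none of the 15, at 16.9, 68.6, 42.9, 144, 15.6 and 16.9. Tut7, a terminal uridylyltransferase, was at 2.69, 79.9, 10.1, 17.6, 2.50 and 11.3 and was found in 1 of the 15. Ribosomal protein genes have many processed pseudogenes, and 10 of the 56 shared entries carry predicted or pseudogene-like names, so the division of reads between copies is uncertain.

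Over all genes, those detected in at least 3 of the 21 OVA cells were kept, and the difference is the mean of log2(rescaled TPM + 1) over the 6 minus that over the 15, a scale that understates the change of low genes. Of 2692 kept genes, 44.1% were higher in the RNA-rich set by at least 1 and 6.17% lower by at least 1, and the median difference was 0.82. Of 80 kept ribosomal protein genes 78 were higher by at least 1 and none lower, with a median of 4.46. The filter keeps a gene that is found in the RNA-rich set alone, so these counts describe the libraries and support nothing further. With totals of nuclear protein-coding and receptor genes only, the median over the genes kept was 1.78, and that of ribosomal protein genes was 7.30. Other entries drop out on this scale. Over the 1651 of the 2692 genes that remain on it, the median was 1.91, and that of ribosomal protein genes was 7.37. The size of these differences thus depends on the choice of total and of genes, and shifts by a different amount for each list.

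Housekeeping genes lay higher in the RNA-rich set, with 10 of 10 kept genes past the difference of 1, beside 44.1% of all kept genes (median 3.65). B2m, the light chain of class I MHC, was at 95.6, 334, 6611 and 186 rescaled TPM in cells 8, 9, 13 and 16, and was listed at 0 in cells 5 and 19 and in all 15 spike-in-dominated libraries. It was found in 4 of 6 libraries (66.7%, 95% Clopper-Pearson interval 22.3% to 95.7%) against 0 of 15. A count of 0 is given here the limit of 3 counts over n, which is 20% for 15 libraries and refers to libraries in which the gene is listed, not to its expression. These intervals and limits, and those below, cover counting error only. Actb, cytoplasmic actin, was at 140, 639, 81.4, 708, 151 and 11.5, and in 7 of the 15 at 18.3 to 3913, so on this scale a library that held it could hold more than any RNA-rich library. Per 1000000 spike-in TPM, the quantity that also sorted the libraries, Actb was at 10809, 1703 and 1375 in cells 8, 13 and 16. These values lay above the spike-in-dominated maximum of 667. In cells 9, 5 and 19 it was at 566, 259 and 28.8, below that maximum. Gapdh, a glycolytic enzyme, was detected in 3 of 6 and 1 of 15, at no more than 56.1 in the RNA-rich set. Tbp was listed at 0 in all 6.

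Chaperone genes were found in 3 to 16 of 20 in the RNA-rich libraries and in 0 to 4 in the others. Of 14 kept genes 12 were past the difference of 1, beside 44.1% of all kept genes, and none below it (median 2.64). The cytosolic chaperone Hsp90ab1 was at 249, 193, 58.6, 2411, 161 and 123, and in 5 of the 15 at 232 to 1487 (difference 4.83). Hspa8, the constitutive Hsp70, was at 44.3, 292, 17.7, 950, 1.36 and 1.75, and in 2 of the 15 at 55.6 and 714 (difference 4.06). Heat-inducible Hspa1b was at 44.8, 32.0, 74.5 and 32.1 in cells 8, 9, 13 and 16 and listed at 0 in the 15, but its near-identical neighbour Hspa1a was above 0 in 5 of those, so the split between the copies is uncertain. In rescaled TPM cell 13 had the highest value of these 3 genes among the 6. On totals of nuclear protein-coding and receptor genes this held for Hsp90ab1 and Hspa8 only. Hspa1b was there at 1112 in cell 9, 864 in cell 16, 342 in cell 8 and 324 in cell 13. Leaving out 1 library at a time gave chaperone medians of 1.91 to 3.36 in rescaled TPM. Of the stress and cell death genes 4 of 4 kept were past the difference of 1, beside 44.1% of all kept genes (median 2.39). Sqstm1, an autophagy receptor, was at 84.9, 23.5, 634 and 93.5 in cells 8, 9, 13 and 16 and was listed at 0 in every other OVA cell.

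Nuclear genes of oxidative phosphorylation gave 13 of 17 kept past the difference of 1, beside 44.1% of all kept genes, and none below it (median 1.73). Of the 95 genes cell 16 had 27, cell 8 had 26, cell 19 had 21 and cell 13 had 13, while cells 5 and 9, with 6 and 4, lay within the 0 to 7 of the spike-in-dominated libraries. Without cell 19 the median was 0.79. This library was led by such genes, with Uqcr11 of complex III at 1219 and the ATP synthase subunit Atp5k at 729 rescaled TPM. In cell 5 the ATP synthase subunit Atp5e was second after S100a8, at 693. Actin and its regulators gave 8 of 14 kept past the difference of 1, beside 44.1% of all kept genes (median 1.57, and 2.55 without cell 9). Of the 21 genes 20 were found in cell 8 and 3 in cell 5. Pfn1, which binds actin monomers, was at 312, 445 and 51.1 in cells 8, 13 and 16 and listed at 0 in cells 5, 9 and 19. Glycolysis and nutrient uptake gave 3 of 6, near the 44.1% over all kept genes (median 1.20, with 0.79 without cell 8 and 1.87 without cell 9) and ribosome biogenesis and translation 4 of 9 (median 0.82, equal to that over all kept genes, and 0.01 without cell 8).

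The identity markers that were detected differed between the 6 libraries. The T cell label was checked with 15 T cell markers, of which cell 13 had 7, cell 16 had 5, cell 9 had 3, cell 5 had 2, and cells 8 and 19 had 1 each, against at most 1 in any spike-in-dominated library. Of 5 kept markers 4 were past the difference of 1 and none below it (median 3.27), the exception being Thy1 at -0.30. Over all kept genes 44.1% were past that difference. Of the 5 markers 3 were detected in no spike-in-dominated library, as were 11.7% of all kept genes, so the filter fixed their direction. On totals of nuclear protein-coding and receptor genes all 5 were past the difference of 1, with Thy1 at 1.03. On that scale 1118 of 1651 kept genes were past it. Cd3e, Cd247, Cd2, Cd5 and Cd8a were listed at 0 in every OVA cell. A transcript of the T cell receptor constant genes was found in 4 of 6 RNA-rich libraries (66.7%, 22.3% to 95.7%), and in 0 of 15 spike-in-dominated libraries, which allows up to 20%. The nothing cells had it in 0 of 8, a count that allows up to 37.5%. Of the 12 neutrophil markers cell 8 had 8, cell 16 had 6, cell 9 had 5, cell 5 had 1 and cells 13 and 19 had none. Only cell 13 thus held several T cell markers and none of neutrophils or red cells, and no cell type name beyond the label is given to any library.

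**Figure D4:**
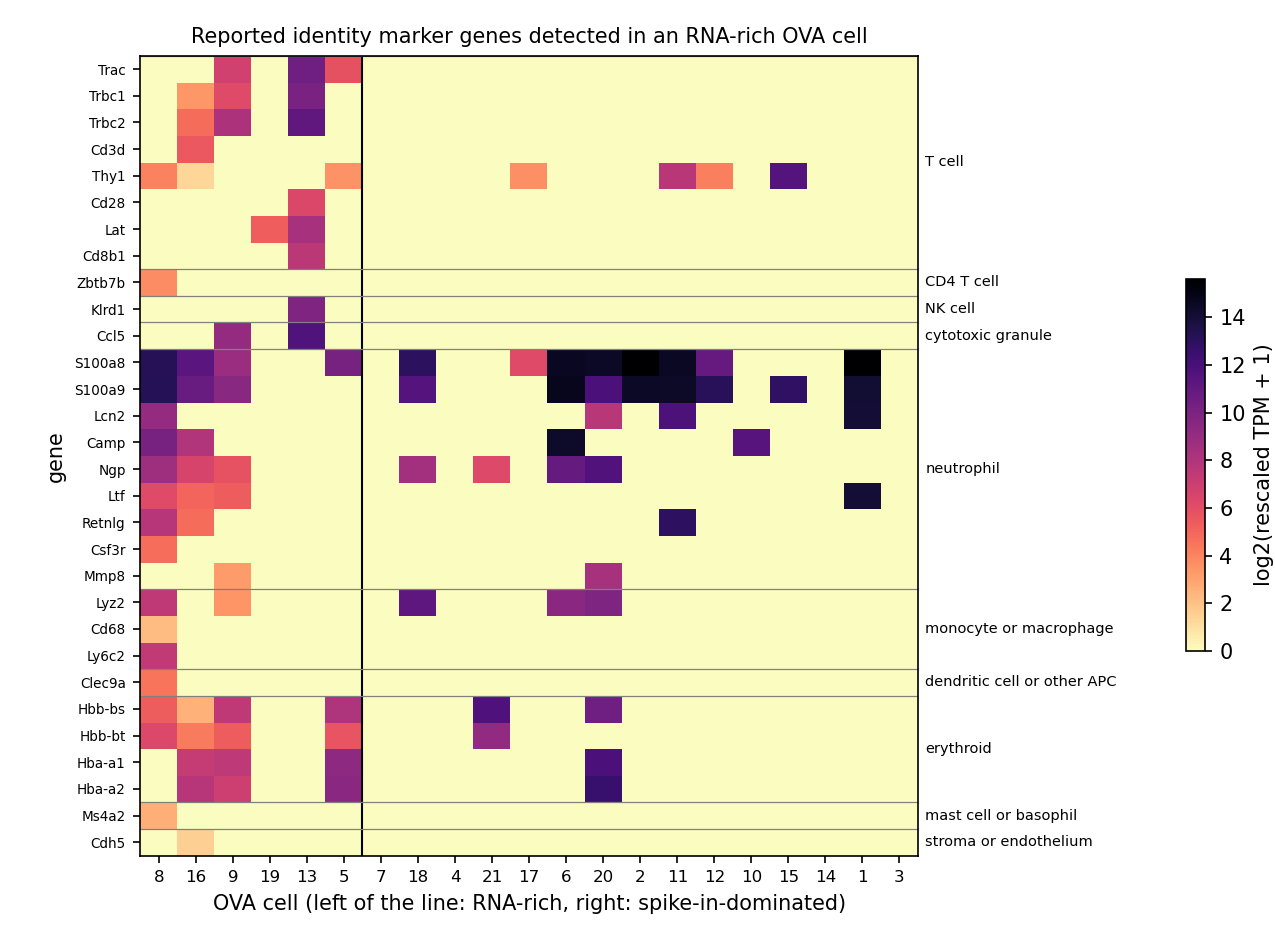
Colour gives log2(rescaled TPM + 1) of the reported identity markers found in at least 1 RNA-rich library (rows, grouped by list) in the 21 OVA cells (columns, ordered by spike-in share; the vertical line ends the RNA-rich set). T cell receptor constant genes are coloured in cells 9, 13, 16 and 5 only, while S100a8 and S100a9 are coloured on both sides of the line.

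Cell 13 held the most T cell markers. Trbc2, a constant segment of the receptor beta chain (chromosome 6, 41546730 to 41548352), was at 2105 rescaled TPM, Trac of the alpha chain (chromosome 14, 54220521 to 54224206) at 1428, and Trbc1 (chromosome 6, 41538218 to 41539881) at 1070. The beta chain segments are near-identical over much of their length, so their split is uncertain. Cd8b1, a chain of the CD8 coreceptor (chromosome 6, 71322788 to 71337494), was at 192 and was listed at 0 in every other OVA cell. The adaptor Lat was at 321 and the costimulatory receptor Cd28 at 81.4. Receptor segments matched those known of OT-1, with the joining segment Traj33 at 855, Trbj2-7 at 599, and copies of the Trav14 family led by Trav14n-1 at 428 and Trav14d-1 at 365. Trav14 copies were also found in 2 of 15 spike-in-dominated libraries and 1 of 8 nothing cells, which held no receptor constant gene. Traj33 was found in none of those 2 sets. Trbv12-1, the variable segment known for the OT-1 beta chain, was listed at 0 in all OVA cells. The highest named nuclear genes of cell 13 were B2m at 6611 and the chemokine Ccl5 at 3270, and it held the killer lectin receptor Klrd1 at 918.

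Cell 9 held receptor transcripts of the same kind together with granulocyte and red cell transcripts. Trbc2 was at 286, Trac at 110, Trbc1 at 73.2 and Traj33 at 39.7 rescaled TPM, and the Trav14 copies were led by Trav14n-1 at 61.9. These values are below those of cell 13, but on totals of nuclear protein-coding and receptor genes only, Trbc2 was at 9929 in cell 9 and 9137 in cell 13, Trac at 3824 and 6200, and Trbc1 at 2545 and 4644. The order of the 2 libraries for Trbc2 thus depended on the total. Ccl5, at 534, was found in no OVA cell other than cells 9 and 13. In the same library the calprotectin subunits S100a9 and S100a8 were at 719 and 447, the granule protein Ngp at 54.3, lactoferrin (Ltf) at 39.3 and the collagenase Mmp8 at 8.78. Haemoglobin Hba-a1 was at 182 and Hbb-bs at 176. T cell receptor and neutrophil markers were thus present in a single tube.

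Cell 16 was similar in this respect, with higher neutrophil and lower receptor levels. Cd3d, a chain of the receptor complex, was at 45.5 rescaled TPM and was found in no other OVA cell, and Trbc2 was at 26.6, Trbc1 at 9.34 and Thy1 at 1.5. S100a8 was at 2590, S100a9 at 1634, the antimicrobial peptide gene Camp at 253, Ngp at 92.7, Ltf at 31.6 and Retnlg at 26.8. Hba-a2 was at 221 and Hba-a1 at 146. The summed neutrophil markers exceeded the T cell markers in this library and in cell 9.

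Cell 5 held Trac at 56.7, Traj32 at 52.0 and Thy1 at 10.8 rescaled TPM, without either beta chain constant gene. Traj32 differs from the joining segment found in cells 9 and 13 and lies beside it in the locus. S100a8, at 1151, was its highest named nuclear gene, while S100a9 was listed at 0. Hba-a2 and Hba-a1 were at 676 and 620, the highest haemoglobin values of the RNA-rich set.

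In cell 8, with the least spike-in and the most genes, the detected markers went against the label. No receptor constant gene was found, and Thy1, at 15.9 rescaled TPM, was its only T cell marker. S100a9 (chromosome 3, 90692632 to 90695721) was at 9870, S100a8 (chromosome 3, 90668978 to 90670035) at 9436, Camp at 1152, lipocalin Lcn2 at 537, Ngp at 413, Retnlg at 214, Ltf at 72.1 and the growth factor receptor Csf3r at 25.0. Lysozyme Lyz2 was at 175 and Ly6c2, a marker of monocytes and some other myeloid cells, at 159. The metallothionein Mt1 was at 1912 and the ferritin light chain Ftl1 at 2118. It also had the most cell cycle genes, 7 of 15, among them the proliferation marker Mki67 at 98.3 and the topoisomerase Top2a at 78.6. Neutrophil genes, iron and metal storage and cell cycle genes were therefore found in the library that holds most genes of the set.

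Cell 19 had neither profile. Lat, at 37.0 rescaled TPM, was its only T cell marker, no receptor constant, neutrophil or haemoglobin gene was detected, and its most abundant named nuclear genes were Uqcr11 at 1219, Hint1 at 965 and Atp5k at 729. Pdcd1, which encodes the inhibitory receptor PD-1, was at 106 and was found in no other OVA cell, and the transcription factor Lef1 was at 22.8, beside 2.28 and 32.2 in spike-in-dominated cells 7 and 21.

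The neutrophil signal was not particular to RNA-rich libraries. S100a8 or S100a9 was found in 4 of 6 RNA-rich (66.7%, 22.3% to 95.7%), 9 of 15 spike-in-dominated (60%, 32.3% to 83.7%) and 5 of 8 nothing cells (62.5%, 24.5% to 91.5%). Rescaled levels were higher in several spike-in-dominated libraries, up to 50030 for S100a8 in cell 1, against 9436 in cell 8. Relative to spike-ins, the quantity that also sorted the libraries, the order changed. S100a8 was at 159708 TPM per 1000000 spike-in TPM in cell 8, 23630 in cell 16, 3112 in cell 9 and 2130 in cell 5, while the spike-in-dominated libraries reached 6758. For S100a8 cells 5 and 9 were thus within that range and cells 8 and 16 above it. For S100a9 cell 9, at 5004, was also above the spike-in-dominated maximum of 4683. The neutrophil list as a whole had 4 of 7 kept genes higher by at least 1 and 1 lower, S100a9. Over all kept genes 44.1% were higher and 6.17% lower by at least 1. On totals of nuclear protein-coding and receptor genes 5 of the 7 were higher by at least 1 and 0 lower (median 2.28), with S100a9 at -0.60. On that scale 1118 of 1651 kept genes were higher and 101 lower by at least 1. In rescaled TPM the list median was 1.02 and turned negative when cell 8 (-0.52) or cell 16 (-0.06) was left out. It was 0.56 without cell 9, 1.64 without cell 5 and 1.72 without cell 13 or cell 19. Its summed level was 0 to 21720 rescaled TPM in the 6 and 0 to 101780 in the 15, with Ly6g and Cxcr2 listed at 0 in all OVA cells.

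Haemoglobin was found in 4 of 6 RNA-rich (cells 5, 8, 9 and 16) and 2 of 15 spike-in-dominated libraries (13.3%, 1.66% to 40.5%). The erythroid list of 6 summed to 0 to 1620 rescaled TPM in the 6 and 0 to 11351 in the 15, with Alas2 listed at 0 in all OVA cells. These 4 libraries are also those with S100a8, but the levels did not follow each other. The erythroid sum was 1620 in cell 5, 517 in cell 9, 391 in cell 16 and 117 in cell 8, the library with the most S100a8. Markers of B cells were listed at 0 in all OVA cells (0 of 12 genes), as were the class II MHC genes H2-Aa, H2-Ab1, H2-Eb1 and Cd74 of antigen-presenting cells. Of the monocyte or macrophage list (12 genes) cell 8 had 3 and cell 9 had 1, and of the dendritic cell list (12 genes) cell 8 had Clec9a at 21.5. Of the CD4 T cell list cell 8 had Zbtb7b at 12.7, and Cd4 and Foxp3 were listed at 0. Whether more than 1 cell entered a tube, or free RNA of lysed cells did, was not tested.

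Activation genes were found in all 6 libraries, in different combinations, and not in proportion to T cell markers. These counts stand beside all nuclear protein-coding genes detected. Those were 3099 in cell 8, 1513 in cell 16, 1241 in cell 13, 1075 in cell 9, 805 in cell 19 and 707 in cell 5. The libraries with the most and the fewest immediate early genes, cells 8 and 5, also had the most and the fewest of those. Immediate early genes are the first to be transcribed after a stimulus. Of 16 such genes 8 were found in cell 8, 7 in cells 9 and 16, 3 in cell 13, 1 in cell 19 and none in cell 5. The spike-in-dominated libraries had 0 to 5 and the nothing cells 0 to 3. Of 6 kept genes 2 were past the difference of 1, beside 44.1% of all kept genes. The median was 0.99, near the 0.82 over all kept genes, and 0.65 without cell 13. Jun, a subunit of the AP-1 factor, was at 28.8, 6.24 and 44.0 in cells 8, 9 and 16 and in 3 of the 15 at 10.8 to 34.1. Junb was at 3.94, 13.8, 123 and 39.9 in cells 8, 9, 13 and 16 and in 5 of the 15, up to 895. Fos was at 33.7 in cell 16 alone, below its 659 and 710 in spike-in-dominated cells 4 and 14. The sets therefore overlapped for all 3 AP-1 genes. Most lists described below also had members in nothing cell 4, with 3856 nuclear protein-coding genes detected. It had 4 of 10 cytokine and 4 of 14 proximal receptor signalling genes, against at most 3 and 4 in an RNA-rich library. It had 3 early surface genes, 3 activation transcription factors and 6 naive and quiescence genes, against at most 4, 4 and 9. Of 22 negative feedback genes it had 0, against at most 7.

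The receptor-induced factors of the Egr and Nr4a families were more scattered. Egr1 was at 46.7 rescaled TPM in cell 16, 7.01 in cell 8 and 92.5 in spike-in-dominated cell 1. Egr2 was at 3.29 in cell 9 and 2.66 in cell 16 and in no other OVA cell. Nr4a2, an orphan nuclear receptor, was at 51.4 in cell 9 and 61.3 in cell 13 and listed at 0 in the other 19 OVA cells. Those 2 libraries are the ones with the most receptor constant transcripts. Nr4a3 was at 11.8 in cell 9 and 16.2 in cell 17. Nr4a1, Myc, Irf4, Il2, Ifng and Tnf were listed at 0 in all 21 OVA cells.

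**Figure D5:**
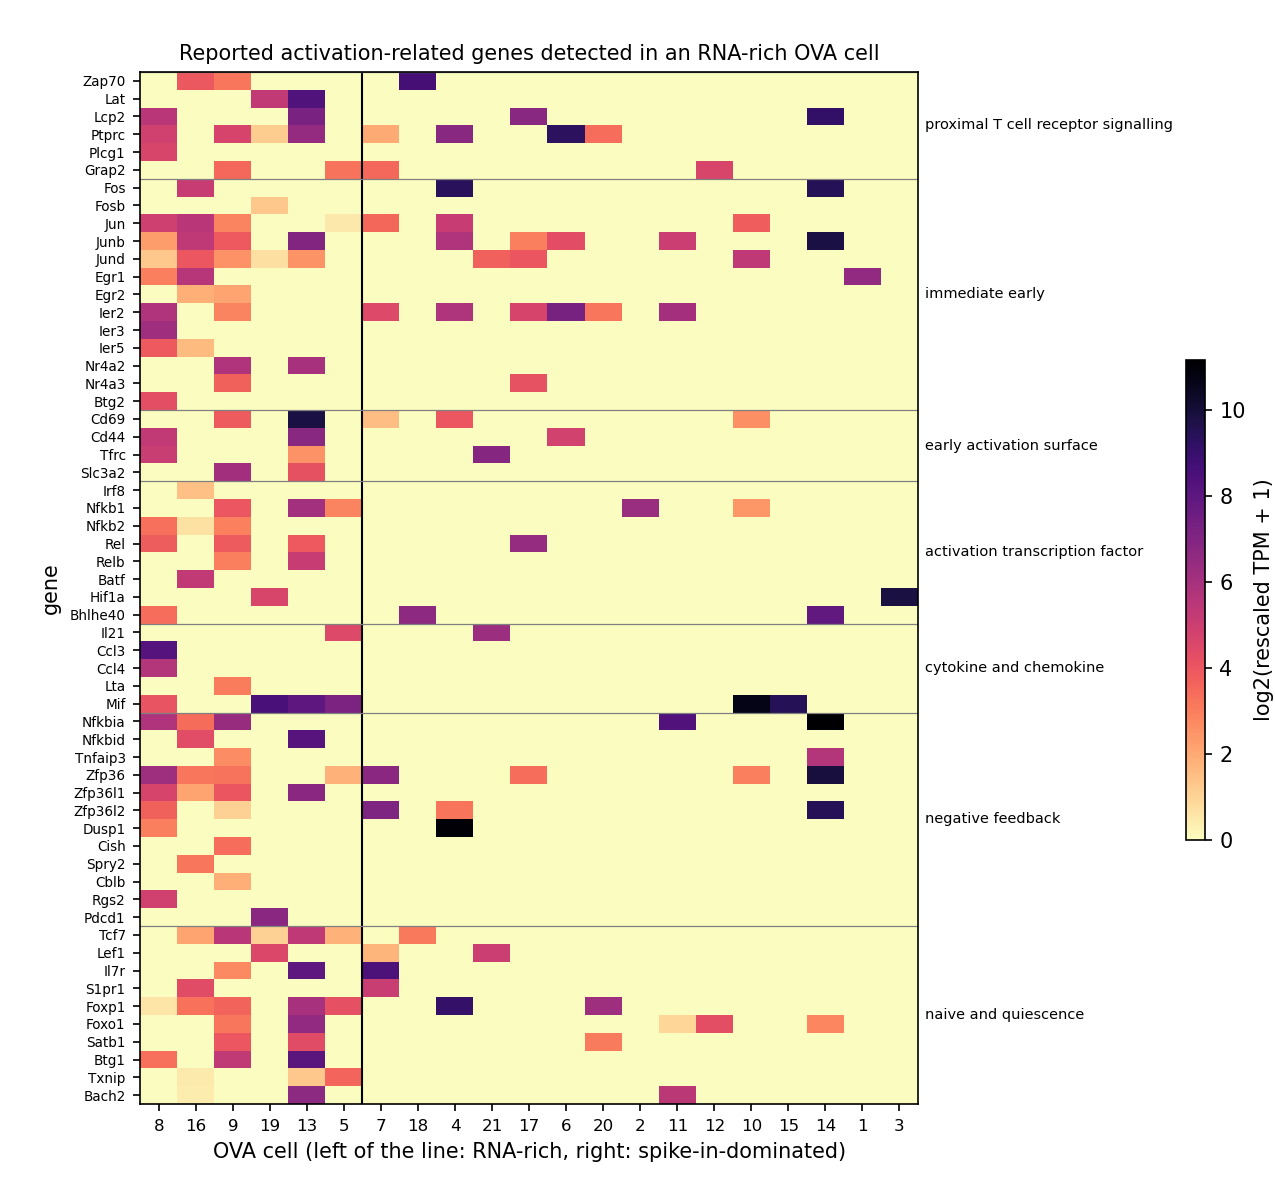
Colour gives log2(rescaled TPM + 1) of the reported activation-related genes found in at least 1 RNA-rich library (rows, grouped by list) in the 21 OVA cells (columns, ordered by spike-in share; the vertical line ends the RNA-rich set). Cells 8, 16, 9 and 13 hold most of the coloured fields left of the line, and cells 19 and 5 hold few.

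Among early surface molecules, Cd69, an early activation marker (chromosome 6, 129267325 to 129275436), was at 888 rescaled TPM in cell 13 and 13.6 in cell 9. It was also found in spike-in-dominated cells 4, 10 and 7 at 14.7, 5.06 and 1.82, so the share was 2 of 6 (33.3%, 4.33% to 77.7%) against 3 of 15 (20%, 4.33% to 48.1%). Cd44, an adhesion receptor raised on activated cells, was at 110 in cell 13, 37.1 in cell 8 and 27.5 in spike-in-dominated cell 6. Slc3a2, the heavy chain of amino acid transporters, was at 69.8 in cell 9 and 17.1 in cell 13 and listed at 0 in the 15. Il2ra was listed at 0 in all 6. Of the 3 kept genes of this list 2 were past the difference of 1, beside 44.1% of all kept genes (median 1.68). Cd69 and Cd44 in cell 13 were thus above every spike-in-dominated value. That library also held genes of quiescent T cells, with the interleukin-7 receptor Il7r at 244 (343 in spike-in-dominated cell 7) and the antiproliferative gene Btg1 at 263.

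Signalling adaptors and transcription factors of the NF-kappaB family were found in small numbers of libraries. Of the proximal receptor signalling list 3 of 5 kept genes were past the difference of 1, beside 44.1% of all kept genes (median 1.05, beside 0.82), led by Ptprc, the phosphatase CD45, at 28.2, 24.9, 88.2 and 1.22 in cells 8, 9, 13 and 19 and in 4 of the 15, up to 626. The kinase gene Zap70 was at 7.90 in cell 9, 14.5 in cell 16 and 397 in cell 18. Nfkb1 was at 6.16, 14.7 and 66.6 in cells 5, 9 and 13, and at 79.9 and 4.37 in spike-in-dominated cells 2 and 10. Rel was at 13.1, 13.6 and 14.1 in cells 8, 9 and 13, and at 85.2 in cell 17. Relb was found in cells 9 and 13 alone, at 6.94 and 33.6. The activation transcription factor list gave 2 of 3 kept past the difference of 1, beside the same 44.1% (median 1.5, and 0.78 without cell 13). Batf, an AP-1 partner, was at 36.8 in cell 16 and in no other OVA cell. Nfkb1, Rel and Relb were thus all found in cells 9 and 13, and 1 of them in each of cells 5 and 8.

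Negative feedback genes gave 2 of 4 kept past the difference of 1, near the 44.1% over all kept genes (median 1.08, and 0.39 without cell 8 or 0.62 without cell 9). Zfp36l1, which promotes decay of AU-rich transcripts, was at 24.7, 15.3, 107 and 3.35 in cells 8, 9, 13 and 16 and listed at 0 in the 15. Nfkbid, an atypical inhibitor of NF-kappaB, was at 284 in cell 13 and 19.3 in cell 16 and in no other OVA cell. Nfkbia, the classical inhibitor, was at 51.6, 82.5 and 9.88 in cells 8, 9 and 16, below its 317 and 2291 in cells 11 and 14. The tyrosine kinase signalling inhibitor Spry2 was at 8.03 in cell 16 and the cytokine signalling inhibitor Cish at 9.31 in cell 9. Each was found in no other OVA cell.

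Cytokine genes were rare. Mif, a constitutively stored cytokine, was at 140, 15.9, 247 and 376 in cells 5, 8, 13 and 19 and at 1629 and 705 in spike-in-dominated cells 10 and 15. The chemokines Ccl3 and Ccl4 were found in cell 8, at 296 and 49.1, and in no other OVA cell. Lta was at 7.14 in cell 9. Il21 was at 20.8 in cell 5 and 75.6 in cell 21. Of the cytotoxic granule list only Ccl5 was found, and Gzmb was listed at 0 in all OVA cells.

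Genes of naive and quiescent T cells gave 6 of 7 kept past the difference of 1, beside 44.1% of all kept genes, and none below it. The median was 1.22, beside 0.82 over all kept genes, and 2.04 without cell 19. Without cell 13 it was 0.89, beside 0.65 over all kept genes with the same library left out. Cell 13 had 9 of the 13 genes, cell 9 had 6, cells 5 and 16 had 3, cell 19 had 2 and cell 8 had 1. Tcf7, a transcription factor of naive and memory T cells, was at 2.52, 42.8, 39.2, 3.28 and 1.12 in cells 5, 9, 13, 16 and 19, listed at 0 in cell 8, and at 7.61 in 1 of the 15. It was the list member found in most RNA-rich libraries. Foxp1, which maintains quiescence, was at 17.6, 11.4, 60.3 and 8.65 in cells 5, 9, 13 and 16 and at 548 and 72.7 in 2 of the 15.

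Cell cycle genes gave 2 of 5 kept past the difference of 1 and 1 below it, beside 44.1% and 6.17% of all kept genes. The median was 0.08, under that over all kept genes, and changed sign without cell 16 (-0.21) or cell 8 (-0.52). Mki67 was at 21.2 and 4.14 in cells 5 and 19 besides cell 8, and at 237 in spike-in-dominated cell 6.

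The named nuclear protein-coding genes found less often in the RNA-rich set were single, scattered genes. Over all kept genes 6.17% were lower by at least 1. Of 18 kept olfactory and vomeronasal receptor genes 3 were lower by at least 1 and none higher by that much. Entries outside the nuclear protein-coding class also lay lower in rescaled TPM, among them AY036118 and the repeat models described above. Nalcn, a sodium leak channel, was found in none of the 6 and in 5 of the 15 at 87.3 to 3781 rescaled TPM (difference -2.80). Gtf2i, a general transcription factor, was below the detection limit in the 6 and found in 6 of the 15, up to 769 (difference -2.04). On totals of nuclear protein-coding and receptor genes it was at 11.5 in cell 5, above its 7.39 in spike-in-dominated cell 11. The detection of Gtf2i thus depended in part on the total. Pfkfb2, which sets the level of a glycolytic activator, was found in none of the 6 and in 5 of the 15, up to 942 (difference -1.91). Csf1r, the macrophage growth factor receptor, was found in 4 of the 15 at 9.04 to 121 and in none of the 6. Among the nuclear protein-coding genes named for a lower detection share, none was found in more than 6 of the 15.

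In the nothing group 2 of 8 libraries met the same spike-in limit, cell 4 at 14.8% and cell 7 at 37.8%. Nothing cell 7 had 54 of the 86 ribosomal protein genes, within the range of the RNA-rich OVA set, and nothing cell 4 had 20, within that of the spike-in-dominated set, with 6417 genes detected. Without mitochondrial genes and copies their spike-in shares were 21.1% and 65.5%. Neither held a receptor constant gene. With 2 libraries the contrast described here has no counterpart of useful size in the nothing group, and differences between OVA and nothing cells among libraries under the limit were not tested.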

How the data were processed

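The authors deposited TPM values, per the file headers a gene by cell table for 29 SMART-seq2 libraries, and each column summed to 1000000 over 54933 entries, including 92 ERCC spike-ins and 3 transgenes that were 0 in every cell. Per the submitters' processing notes HISAT2 2.1.0, StringTie 1.3.5 and featureCounts 1.6.4 were used with GRCm38 and mm10. Which tool made which value, how much spike-in was added and whether cells were filtered is not stated in the labels. Of gene values in OVA cells 97.4% were 0, and no 2 libraries were identical.

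Python 3.11.15 with pandas 2.3.3, numpy 2.4.6 and scipy 1.17.1 was used. OVA cells with at most 500000 ERCC TPM were RNA-rich. TPM was rescaled to 1000000 without ERCC entries, a gene was detected from a rescaled TPM of 1 upward and kept when 3 or more of the 21 OVA cells had it (2692 genes), and differences are of mean log2(rescaled TPM + 1), called at 1 or more. Each group is 1 sample, so no test was made. The calculation was tested on simulated data. Gene positions come from GENCODE M21 (54723 of 54838 identifiers matched).

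The members and the 31 gene lists were chosen with earlier results of these data known. Named genes were up to 3 markers or activation genes per list and library, the 5 highest named nuclear genes of each RNA-rich library, up to 3 kept genes of each list with the largest difference, the 10 genes each way with the largest difference in detection, and 17 fixed genes. Further genes, among them receptor segments, mitochondrial neighbours and values that complete a list, were chosen after their values were seen. Alternatives changed the ERCC limit, the total, the detection limit, the pseudocount, the filter and the mean, or left out each RNA-rich library. Totals of nuclear genes only, and members by the spike-in share without mitochondrial signal, were chosen after seeing the data. The labels give no batch, and doublets were not called. A few members of the lists enter the counts but are not reported here by name.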

Additional observations from a re-analysis of the deposited data

Results flagged for a closer look

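In 39 measures checked over the 6 RNA-rich libraries, 11 had a library far from the other 5, its gap to the nearest being a large part of the whole range. Chance flags about 1 in 20 groups, the measures are not independent, and a gene found in a single library always stands out in this way. OVA cell 8 stood apart in genes detected (4200), in the mean log2 level of cell cycle genes (3.33), and in S100a8 (9436 rescaled TPM) and S100a9 (9870). OVA cell 13 stood apart in the receptor genes Trac (1428), Trbc1 (1070) and Trbc2 (2105 rescaled TPM), in the coreceptor gene Cd8b1 (192) and in the activation marker Cd69 (888). For the receptor genes this holds on the rescaled total, which mitochondrial signal fills more in cell 9 than in cell 13. On totals of nuclear protein-coding and receptor genes Trbc2 was at 9929 in cell 9 and 9137 in cell 13. OVA cell 16 stood apart in Fos (33.7), which no other RNA-rich library held. OVA cell 5 stood apart in the share of rescaled TPM at repeat models (4.19%), which lies within the spike-in-dominated range of 2.0% to 54.8%.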

How the results depend on the processing

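The difference in median genes detected, RNA-rich minus spike-in-dominated, was 1242, 162 with detection at a rescaled TPM of 10, and 1031 to 1453 with each RNA-rich library left out. The median difference over all kept genes was 0.82, 1.83 with a pseudocount of 0.1, and 0.65 to 1.01 without a library. It was 1.78 on totals of nuclear protein-coding and receptor genes, where other entries drop out. For ribosomal protein genes it was 4.46, 6.57 with medians over cells, 6.75 and 2.35 with pseudocounts of 0.1 and 10, 7.30 on nuclear totals, and 3.96 to 4.89 without a library. Neutrophil markers moved from 1.02 to -0.06 without OVA cell 16 and -0.52 without OVA cell 8, a reversal, and reached 1.72 without cell 13 or 19. With that range of -0.52 to 1.72 no direction is claimed for them. The ranges without a library were 1.91 to 3.36 for chaperones and 0.65 to 1.32 for immediate early genes, 3 to 4 for libraries with a receptor constant gene, and 41.3 to 46.0 percentage points for the mitochondrial share. Members chosen without mitochondrial signal (4 libraries, 3 with a receptor constant gene) gave 2.37 for neutrophil markers and 1.77 for immediate early genes. A limit of 300000 or 800000 ERCC TPM gave 5 or 7 libraries. Of the remaining alternatives for other lists 255 stayed within the spread between libraries and 25 moved beyond it. That spread could exceed the result, as for T cell markers (3.27, spread 4.17) and early surface genes (1.68, spread 3.13). Staying within it therefore shows little. With medians over cells the early surface, naive and proximal signalling lists gave 0 and still counted as within. Most of the 25 came from the olfactory list, whose spread was 0.0237. No paired analysis was possible because the members are cells of a single group and their numbers are only names. Depth is unknown, so genes at 0 were not called absent.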
